A study of Mus musculus with 16 samples.

Results

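The 10 genes described here encode immune checkpoint ligands and receptors and were chosen by name from the 25054 genes of the count table. They are *Cd274* (PD-L1), *Pdcd1lg2* (PD-L2), *Cd276* (B7-H3), *Vsir* (VISTA), *Havcr2* (TIM-3), *Lgals9* (galectin-9), *Pvr* (CD155), *Nectin2* (CD112), *Cd47* and *Sirpa*. All 10 were in the table, and 9 passed the filter on low counts; *Pdcd1lg2* was left out of the test. RNA sequencing measured them in 16 osteosarcomas of mice, 8 from mice labeled KO for *Arid1a*, a chromatin remodeling subunit, and 8 labeled WT. The question of the comparison was how loss of *Arid1a* changes the transcriptome of the tumor.

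Mice of both groups carried OsxCreERT2+/-, p53fl/fl and Rb1fl/fl, so the floxed tumor suppressor genes were common to all tumors. The KO mice carried Arid1afl/fl as well. Tamoxifen (400 μg per gram) was injected at 1 month of age, the mice were more than 6 months old, and both sexes were used, with the sex of each tumor not given. The Cre is driven by Osterix, a factor of osteoblast precursors, so immune and vascular cells of the tumors were not its target. Each KO tumor came from its own mouse and is called here by the name in its label (Massa, Medusa, Montana, Ohio, Prince, Grilka, Zelda and Oregon). The WT tumors had animal codes of 4 mice. Mouse N42 gave 4 of them, N43 gave 2, and N215 and N25 gave 1 each. Body sites were labeled for WT only, and the N25 tumor was labeled lung.

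Immune checkpoints are pairs of surface or secreted proteins that restrain T cells, NK cells or phagocytes after contact with another cell. PD-L1 and PD-L2 engage PD-1 on T cells and are induced by interferon, CD155 and CD112 bind TIGIT and the activating receptor DNAM-1, and CD47 engages SIRPα on macrophages and blocks engulfment. VISTA and TIM-3 are abundant on myeloid cells as well as on T cells, galectin-9 is a soluble ligand of TIM-3, and B7-H3 is carried by many sarcomas, including osteosarcoma. In a bulk tumor, fewer cells of a type and less RNA per cell cannot be told apart.

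The promoters of 8 of the 10 genes were found in RefSeq (GRCm38.p6), each as 250 bases before to 50 bases after a start site given by RefSeq, which is not always the gene boundary of GENCODE, as for *Cd47*, *Nectin2* and *Cd276*. *Pvr* and *Sirpa* were not matched. Both strands were searched for the interferon-stimulated response element (ISRE, here GAAA followed by any 2 bases and GAAA) and the STAT site (GAS, TTCNNNGAA), 2 elements through which interferons act. Of the 8 genes only *Lgals9* held a match, with 2 ISRE matches on the strand opposite to the gene, starting 55 bases before and 16 bases after that start site. Of 32851 promoters, 3.44% held the ISRE letters and 8.30% the GAS letters. The sequences of *Vsir* and *Havcr2*, which had the smallest p-values of the 10 genes, of *Cd274* and of *Lgals9* follow, 5′ to 3′ on the strand of the gene, with matches in capitals. *Vsir* lies at chr10:60346601-60346900 (plus), *Havcr2* at chr11:46454681-46454980 (plus), *Cd274* at chr19:29367188-29367487 (plus) and *Lgals9* at chr11:78984875-78985174 (minus).
Vsir: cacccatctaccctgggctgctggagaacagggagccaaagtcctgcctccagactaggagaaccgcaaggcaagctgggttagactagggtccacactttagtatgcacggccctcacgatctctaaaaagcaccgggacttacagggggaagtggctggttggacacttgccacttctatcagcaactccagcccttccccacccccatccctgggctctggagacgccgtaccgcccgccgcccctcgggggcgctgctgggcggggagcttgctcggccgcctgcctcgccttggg
Havcr2: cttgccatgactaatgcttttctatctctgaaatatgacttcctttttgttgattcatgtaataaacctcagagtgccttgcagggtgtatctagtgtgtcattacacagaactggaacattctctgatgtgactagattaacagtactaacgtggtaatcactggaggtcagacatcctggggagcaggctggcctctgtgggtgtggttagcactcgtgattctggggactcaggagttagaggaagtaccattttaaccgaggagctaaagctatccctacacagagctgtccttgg
Cd274: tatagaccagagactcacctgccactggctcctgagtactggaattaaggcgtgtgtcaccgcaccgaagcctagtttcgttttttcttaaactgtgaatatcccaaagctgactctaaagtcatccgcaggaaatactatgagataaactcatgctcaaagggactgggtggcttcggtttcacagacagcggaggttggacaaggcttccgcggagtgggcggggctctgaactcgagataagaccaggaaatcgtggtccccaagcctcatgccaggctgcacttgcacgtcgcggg
Lgals9: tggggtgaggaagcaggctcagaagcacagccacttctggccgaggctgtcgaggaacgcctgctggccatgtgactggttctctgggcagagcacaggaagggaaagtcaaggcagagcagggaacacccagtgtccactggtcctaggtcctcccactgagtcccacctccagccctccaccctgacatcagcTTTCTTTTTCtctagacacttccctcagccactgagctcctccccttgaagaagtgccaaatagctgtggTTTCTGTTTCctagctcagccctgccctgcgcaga

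The libraries differed in depth. Total counts ranged from 1109487 to 15059640 in KO (median 5367669) and from 7806160 to 16962329 in WT (median 14828152). Levels are given as CPM, the count scaled to the TMM-normalized library size. The TMM factor was 0.409 in Massa and 0.414 in Grilka, against 1.15 to 1.44 in WT. A low factor raises the CPM, so high values in Massa depend on it as well. A count of 3 was worth 0.20 to 6.69 CPM in KO, the highest in Massa, and 0.15 to 0.34 CPM in WT. Ribosomal RNA genes took 0.437% to 18.4% of the counts in KO and 0.0974% to 1.58% in WT. *Arid1a*, counted over the whole gene so that the floxed exons cannot be told from the rest, was between 107 and 270 CPM in KO and between 125 and 236 CPM in WT (log2 fold change 0.16, SE 0.22, edgeR adjusted p = 0.715). The summed CPM of 9 osteoblast markers, led by *Spp1*, *Ibsp* and *Alpl*, was 53.3 to 6190 in KO, lowest in Montana, and 285 to 7250 in WT, lowest in the N25 lung tumor.

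Of the checkpoint transcripts, that of the myeloid receptor VISTA was lower in KO tumors. *Vsir* fell, with levels 2.87 times as high in WT as in KO, and was the only 1 of the 9 tested genes past the threshold of 0.05 for edgeR's adjusted p. *Havcr2* had the larger fold, 8.74 times higher in WT, but missed the threshold. Of all 15413 genes tested, 4.01% were called, 2.15% lower and 1.86% higher in KO. At an unadjusted p under 0.05 there were 3 of the 9 genes (*Vsir*, *Havcr2* and *Sirpa*) and 23.0% of all genes. DESeq2 called 2 of the 9, *Vsir* and *Havcr2*, against 10% of all genes (3.82% lower and 6.22% higher in KO), with 2 of the 9 and 22.5% of all genes at an unadjusted p under 0.05. These shares are over 25054 genes, of which 20078 had an adjusted p (958 called lower and 1559 higher). With counts summed per mouse, edgeR called 0 of the 9 and 0.0625% of all genes, and 2 of the 9 and 7.88% of all genes had an unadjusted p under 0.05. Of the 9 estimates 7 were below 0. Their median on the log2 scale was −0.77, while that of all genes was 0.10.

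**Figure D1:**
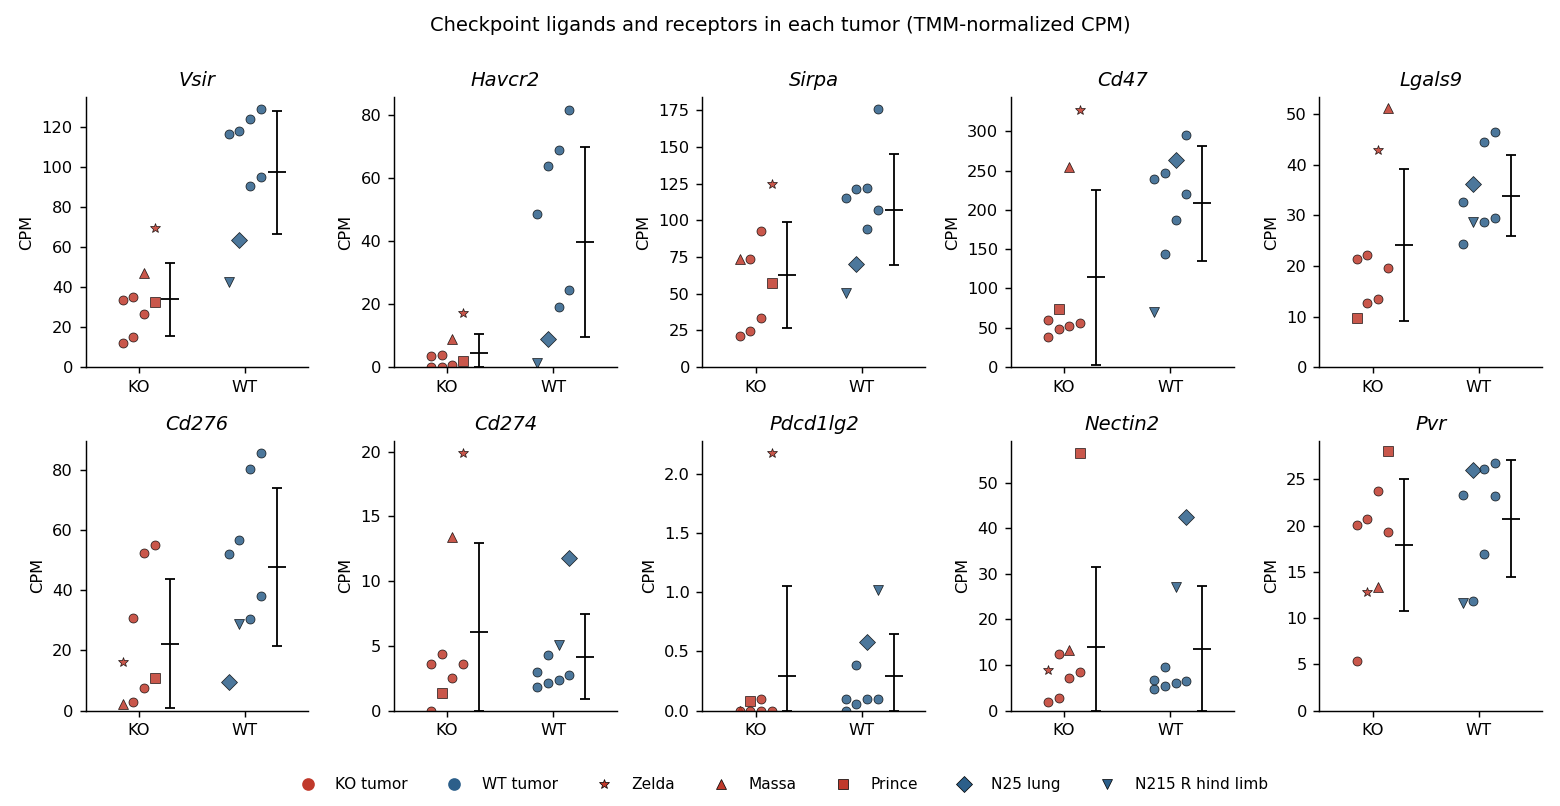
CPM of the 10 genes (vertical axes, linear from 0, each panel with its own scale) in 8 KO (red) and 8 WT (blue) tumors, with the mean and SD of each group as black bars cut at 0. For *Vsir*, 6 WT tumors lie above the highest KO tumor, Zelda, while for *Cd274*, *Pdcd1lg2* and *Nectin2* 1 or a few marked tumors stand far above the rest.

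*Vsir* encodes VISTA, an inhibitory immunoglobulin protein of myeloid cells and resting T cells, and lies on chromosome 10 of GRCm38 from 60346851 to 60372684. Its level in KO ranged from 12.1 CPM in Grilka to 69.3 CPM in Zelda with a median of 33.0 CPM, and in WT from 42.8 CPM in N215 to 129 CPM in the N43 pelvis tumor with a median of 106 CPM. Every KO tumor was below the WT median, and 6 of 8 were below the lowest WT tumor. The exceptions were Zelda and Massa, which overlapped with the N215 and N25 tumors. The 8 KO tumors averaged 33.8 ± 18.2 CPM (SD) and the 8 WT tumors 97.4 ± 30.9 CPM (SD). The log2 fold change was −1.52 (SE 0.33, 95% interval −2.23 to −0.82, edgeR adjusted p = 0.0181). Exact permutation of log2 CPM, two-sided, gave p = 0.000777 over tumors and p = 0.0263 over the 12 mice, for which the tumors of a mouse were joined. The adjusted p ranged from 0.00512 to 0.0425 when each tumor was left out in turn and was 0.00104 in DESeq2. In edgeR it rose to 0.510 with counts summed per mouse, to 0.446 without mouse N42, to 0.0822 without N43, to 0.0665 without Montana, Oregon and Prince and to 0.554 with the ribosomal RNA share as a covariate. In limma-voom, which modeled tumors of 1 mouse as correlated, it was 0.307. *Cdh23* lies over *Vsir* on the opposite strand, and whether reads were counted by strand is not given in the sources used here. It had 12.7 CPM in KO and 1.49 CPM in WT on average, the reverse of the direction of *Vsir*.

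*Havcr2* encodes TIM-3, a receptor of macrophages, dendritic cells and exhausted T cells, and lies on chromosome 11 from 46454935 to 46481255. In KO it had no counts in Montana and Grilka, a median of 2.77 CPM and its highest value, 17.2 CPM, in Zelda. In WT it ranged from 1.36 CPM in N215 through a median of 36.5 CPM to 81.7 CPM in the N42 left shoulder tumor. All 8 KO tumors were below the WT median, and 6 WT tumors were above the highest KO tumor. The N215 and N25 tumors, at 1.36 and 8.97 CPM, lay among the KO tumors. On average the 8 KO tumors had 4.50 ± 5.90 CPM (SD) and the 8 WT tumors 39.7 ± 30.2 CPM (SD), and the difference on the log2 scale was −3.13 (SE 0.88, 95% interval −4.98 to −1.28, edgeR adjusted p = 0.0533). Its adjusted p was 0.00661 in DESeq2, 0.0134 without Zelda, 0.0287 without N215 and 0.0398 without the N25 tumor, and between 0.0503 and 0.753 under the other alternatives. Without mouse N42 the log2 fold change was −1.53. The exact permutation test gave p = 0.00513 over tumors and p = 0.105 over mice.

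*Sirpa* encodes SIRPα, the CD47 receptor of macrophages and other myeloid cells (chromosome 2, 129592835 to 129632228). KO tumors ranged from 21.2 CPM in Oregon to 125 CPM in Zelda with a median of 65.6 CPM, and WT tumors from 50.5 CPM in N215 to 176 CPM in the N43 pelvis tumor with a median of 111 CPM. In KO all values but that of Zelda lay below the WT median, and the groups overlapped. The log2 fold change of −0.77 (SE 0.36, 95% interval −1.52 to −0.02) had an unadjusted p of 0.0447 and an adjusted p of 0.206 in edgeR.

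**Figure D2:**
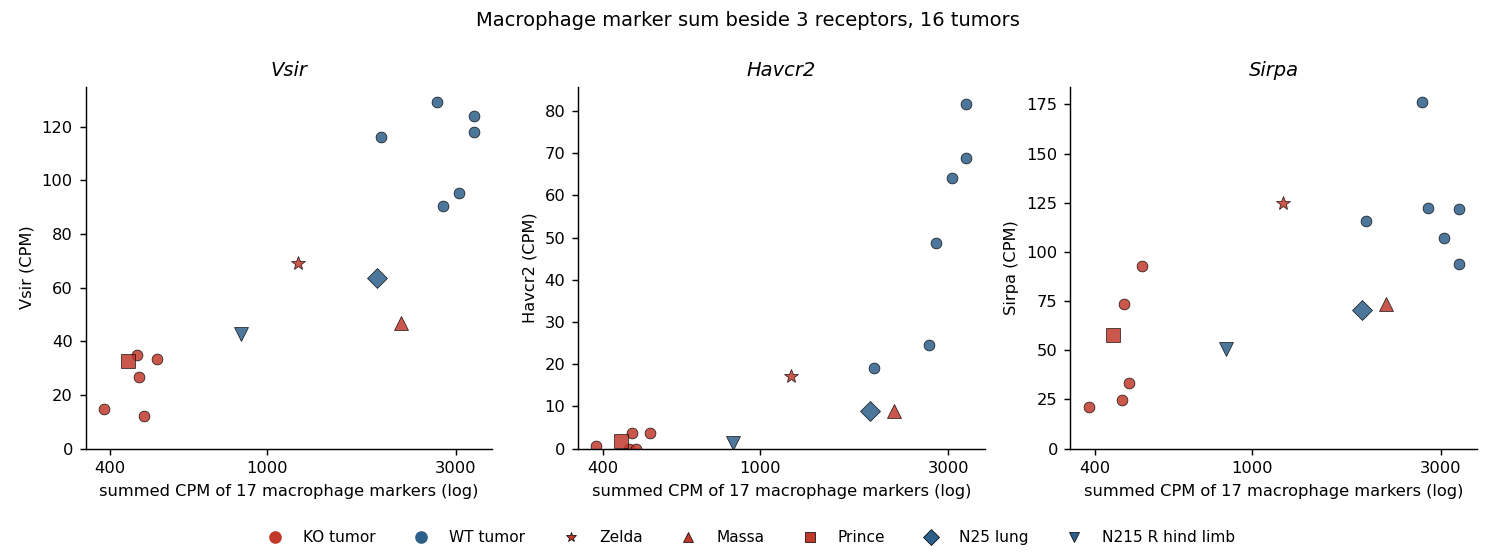
CPM of *Vsir*, *Havcr2* and *Sirpa* (vertical axes, linear) against the summed CPM of 17 macrophage markers (horizontal axis, log scale) in 8 KO (red) and 8 WT (blue) tumors. In the *Vsir* panel the 6 tumors of N42 and N43 lie at the upper right with 1942 to 3332 CPM of markers. There 6 KO tumors, the lowest at 386 CPM, lie at the lower left. For *Havcr2* the N43 tumors (19.2 and 24.5 CPM) lie near Zelda (17.2 CPM). For *Sirpa*, Ohio (93.0 CPM) is level with the N42 left limb tumor (94.1 CPM).

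Markers of macrophages moved in the same direction. Of 17 markers, all of which were tested, 13 fell and none rose in KO, where edgeR called 2.15% of all tested genes lower. The median of their log2 fold changes was −2.03. The most abundant were the lysozyme gene *Lyz2* (360 CPM in KO and 710 CPM in WT), which did not pass the test, the mannose receptor gene *Mrc1* (60.4 and 305 CPM) and the CSF1 receptor gene *Csf1r* (68.5 and 282 CPM). The summed CPM of the list was 386 to 2179 in KO, highest in Massa with 2179 and Zelda with 1198, and 856 to 3332 in WT, lowest in N215. In Massa, 1909 of the 2179 CPM were *Lyz2*, and without that gene, left out after seeing the data, its sum was 269.9 CPM against 828 CPM in Zelda. The part of the macrophage markers in the differences of *Vsir*, *Havcr2* and *Sirpa* was not tested. As for *Vsir*, 0 markers were past the threshold with counts summed per mouse, without N42, with the ribosomal RNA covariate or in limma-voom, and 14, 10, 9 and 14 of them had an unadjusted p under 0.05 in these fits. Over all genes these fits called 10, 8, 17 and 17. At that unadjusted p they had 1262 of 16007, 1283 of 16050, 1564 of 17468 and 1371 of 15413 genes. In edgeR 2 markers passed without N43 and 4 without Montana, Oregon and Prince, and leaving out 1 tumor at a time gave 5 (without the N42 femur tumor) to 15 (without Massa). Of all genes, 87 of 15351 were called lower without N43 and 210 of 16616 without Montana, Oregon and Prince. The numbers were 167 of 15537 without the N42 femur tumor and 437 of 15955 without Massa.

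The 3 genes whose log2 CPM followed each receptor most closely over the 16 tumors, which share mice and differ in depth, are listed next. They were chosen over the same tumors, so their lower average in KO follows from the choice and is no separate result. For *Vsir* they were *Tm6sf1* (Pearson r of 0.96), *Rassf2* (0.95) and *C5ar1*, the complement C5a receptor gene (0.95). For *Havcr2* they were *Mpeg1*, which encodes the macrophage pore protein perforin-2 (0.95), *Il10ra*, the interleukin 10 receptor gene (0.94), and A630081D01Rik (0.94). For *Sirpa* they were *Igsf6* (0.93), *Ptprj* (0.92) and *Laptm5* (0.92). *C5ar1* averaged 5.39 CPM in KO and 41.5 CPM in WT, and *Mpeg1* 69.8 and 195 CPM.

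The ligands of SIRPα and TIM-3 did not pass the test. *Cd47* (chromosome 16, 49800533 to 49915010), which most cells express, ranged from 38.9 CPM in Oregon to 327 CPM in Zelda in KO with a median of 58.4 CPM, and from 69.9 CPM in N215 to 296 CPM in the N42 femur tumor in WT with a median of 230 CPM. The KO tumors fell into 6 between 38.9 and 73.8 CPM and the 2 tumors Massa (254 CPM) and Zelda, and the N215 tumor lay with the former. KO minus WT on the log2 scale was −0.88 (SE 0.47, 95% interval −1.85 to 0.10, edgeR adjusted p = 0.269), or −1.35 without Zelda (adjusted p = 0.0537, within a range of 0.0537 to 0.948 over all alternatives).

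*Lgals9*, on chromosome 11 from 78962974 to 78984946, had a narrow range in WT, 24.4 to 46.6 CPM with a median of 31.1 CPM. In KO it ranged from 9.80 CPM in Prince to 51.3 CPM in Massa with a median of 20.6 CPM. In KO 6 tumors were below the lowest WT tumor, and Massa, with 23 counts (95% Poisson interval 32.5 to 77.0 CPM), was above the highest. That place depends on the low TMM factor of Massa (0.409). The log2 fold change of *Lgals9* was −0.52 (SE 0.32, 95% interval −1.21 to 0.16, edgeR adjusted p = 0.350).

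Ratios of 2 genes within a tumor, 4 in all and with a prior count that averaged 2, were compared by a two-sided exact permutation test over the tumors, with adjustment over the 4. The log2 ratio of *Lgals9* to *Havcr2*, ligand to receptor, was 3.55 ± 2.25 (SD, n = 8) in KO and 0.46 ± 1.82 (SD, n = 8) in WT, a difference of 3.09 (permutation p = 0.00917, adjusted p = 0.0367). It ranged from 1.31 to 6.99 in KO and from −1.07 to 4.24 in WT, where N215 was the highest. *Havcr2* had no counts in Montana and Grilka, so that their log2 ratios of 6.86 and 6.99 rest on the prior count. The groups overlapped through N215 and N25. The adjusted p was below 0.05 in 9 of 21 alternatives and ranged from 0.00559 to 0.598. It was 0.0702 without Montana, 0.0709 without Grilka, 0.598 without N42 and, with counts summed per mouse, 0.529 (permutation p = 0.154). The *Cd47* to *Sirpa* ratio differed by −0.31 (permutation p = 0.417, adjusted p = 0.835), with log2 ratios of −0.62 to 1.79 in KO and 0.085 to 1.90 in WT.

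*Cd276* (chromosome 9, 58524298 to 58555437), the B7 family member of mesenchymal and tumor cells, ranged in KO from 2.23 CPM in Massa, which is 1 count, to 55.1 CPM in Medusa with a median of 13.5 CPM. In WT it ranged from 9.49 CPM in the N25 lung tumor to 85.5 CPM in the N42 femur tumor with a median of 45.1 CPM. Medusa, Ohio (52.3 CPM), Grilka (30.9 CPM), Zelda (16.2 CPM) and Prince (10.7 CPM) lay within the WT range, and 3 KO tumors were below the lowest WT tumor. Between the groups the log2 fold change was −1.08 (SE 0.58, 95% interval −2.31 to 0.15, edgeR adjusted p = 0.277). The genes most like it over the 16 tumors were *Rcn3* (Pearson r of 0.94), *Serpinh1*, the collagen chaperone gene (0.94), and *Rap2b* (0.94). The summed CPM of 7 fibroblast markers, led by *Col1a2*, *Col3a1* and *Pdgfra*, was 946 to 18980 in KO and 2308 to 41330 in WT. Medusa, Ohio and Grilka had the highest sums in KO (14060, 10460 and 18980), and the part of these cells was not tested. *Gm10657* overlaps *Cd276* on the opposite strand and shares 9.92% of its 50-base stretches.

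**Figure D3:**
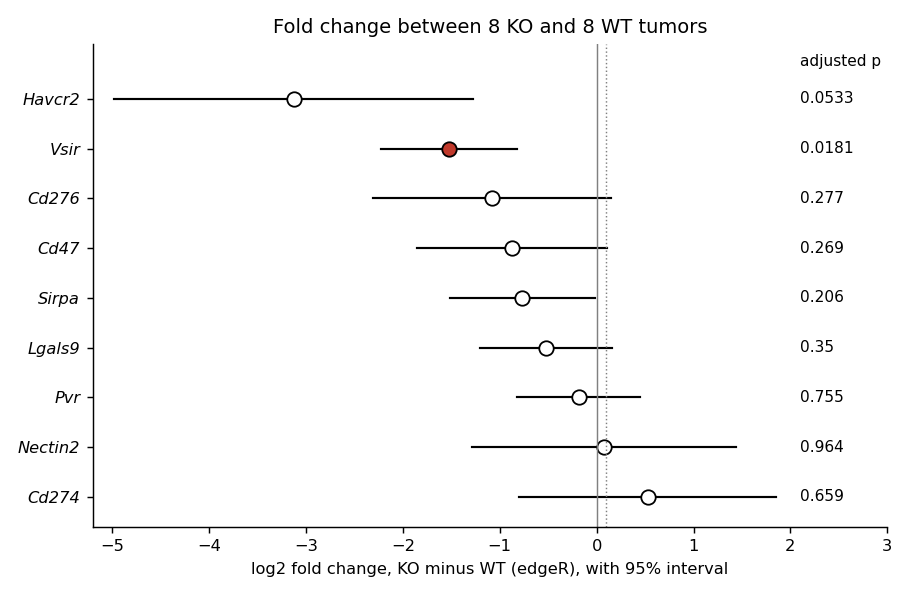
Log2 fold change from KO minus WT (horizontal axis) of the 9 tested genes with 95% intervals, adjusted p from edgeR at the right, *Vsir* filled as the gene past the threshold. Solid and dotted vertical lines mark 0 and the median of all genes (0.10), and the intervals of 6 genes span 0.

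The PD-1 ligands were low in nearly all tumors and high in a few. *Cd274*, on chromosome 19 from 29367455 to 29388095, encodes PD-L1. In KO it ranged from 0 in Grilka to 19.9 CPM in Zelda with a median of 3.63 CPM, and in WT from 1.81 CPM in the N43 spine tumor to 11.8 CPM in the N25 lung tumor with a median of 2.87 CPM. Zelda, Massa (13.4 CPM from 6 counts, 95% Poisson interval 4.91 to 29.1 CPM) and N25 stood above the other tumors, which reached 5.10 CPM. The place of Massa rests on these few counts and on its low TMM factor (0.409), which the Poisson interval does not cover. The log2 fold change was 0.53 (SE 0.63, 95% interval −0.80 to 1.85, edgeR adjusted p = 0.659) and became −0.19 without Zelda. *AC119228.1* overlaps *Cd274* on the opposite strand, and 12.4% of the 50-base stretches of *Cd274* occur in other transcripts, mostly in that gene.

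*Pdcd1lg2*, which encodes PD-L2, begins 22.8 kb beyond the end of *Cd274* on the same strand (29410919 to 29471161). It had 3 counts or fewer in 7 of 8 KO and 5 of 8 WT tumors, so no fold change is given. Zelda held 32 of its 34 counts in KO (2.17 CPM), and N215 had the highest level in WT (1.02 CPM). The log2 ratio of *Cd274* to *Pdcd1lg2* differed by 0.35 between the groups (permutation p = 0.651, adjusted p = 0.867), a value that rests on the prior count in the tumors without *Pdcd1lg2* counts.

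Lymphocyte markers were high in the tumors that were high in *Cd274*, except for Massa. The summed CPM of 14 T and NK cell markers, the most abundant being *Cd4*, *Lck* and *Cd2*, was 140 in Zelda and 35.6 in N25 and at most 14.2 in the others. Of these markers 6 had no counts in at least 5 KO tumors. The 3 B cell markers (*Ms4a1*, *Cd79b* and *Cd79a*) summed to 372 CPM in Zelda, 49.8 CPM in N25 and 0 in Massa. In Massa and N25, markers of lung summed to 10290 and 27870 CPM, led by *Scgb1a1*, *Sftpc* and *Sftpb*, against a median of 0.17 CPM in KO and 0.31 CPM in WT. The part of lymphoid and lung cells in the level of *Cd274* was not tested. The genes most like *Cd274* over the 16 tumors were *Themis2* (Pearson r of 0.92), AW112010 (0.90) and *Gimap1* (0.89), and those most like *Pdcd1lg2* were *Icosl* (0.92), *Ipcef1* (0.90) and *Ms4a4b* (0.88). The latter rest on few counts.

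**Figure D4:**
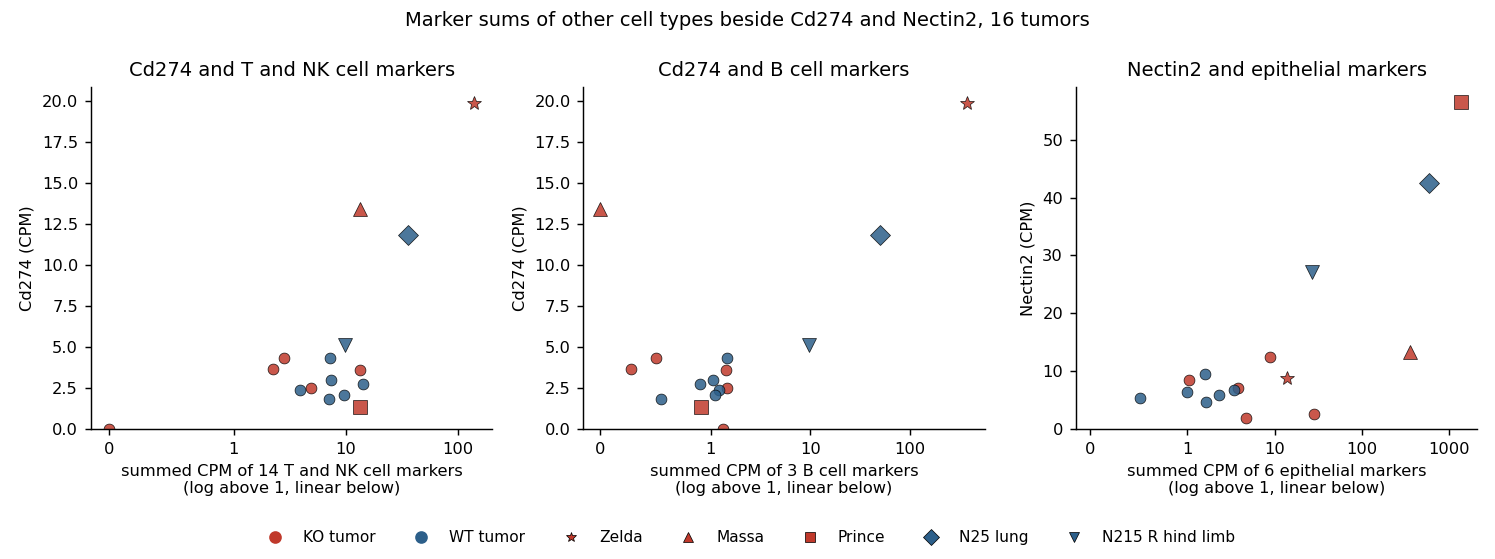
*Cd274* (left and center) and *Nectin2* (right) in CPM (vertical axes, linear) against summed CPM of T and NK cell, B cell and epithelial markers (horizontal axes, log scale above 1 and linear below) in 8 KO (red) and 8 WT (blue) tumors. Zelda and N25 are high on both axes in the left and center panels, and Prince and N25 in the right panel.

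*Nectin2* and *Pvr* encode adhesion proteins that bind TIGIT. *Nectin2* (chromosome 7, 19716644 to 19750483) ranged from 1.96 CPM in Oregon to 56.4 CPM in Prince in KO with a median of 8.67 CPM, and from 4.73 CPM in the N43 spine tumor to 42.5 CPM in N25 in WT with a median of 6.61 CPM. Apart from Prince, N25 and N215 (27.1 CPM), no tumor exceeded 13.4 CPM. The log2 fold change was 0.07 (SE 0.65, 95% interval −1.29 to 1.43, edgeR adjusted p = 0.964) and −0.80 without Prince. The summed CPM of 6 epithelial markers, led by *Cdh1*, *Krt18* and *Krt8*, was 1369 in Prince, 587 in N25, 350 in Massa and at most 28.2 in the other tumors. Prince also held 10560 CPM of 5 salivary gland markers (*Bpifa2*, *Muc19* and *Smr3a* the most abundant), and the part of epithelial cells in the level of *Nectin2* was not tested. The genes most like *Nectin2* were *Lsr* (Pearson r of 0.86), *Tmem151a* (0.86) and *Tmc4* (0.86).

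*Pvr* (chromosome 7, 19903578 to 19921160) had the smallest standard error of the 9 genes. It ranged from 5.37 CPM in Grilka, which is 4 counts, to 28.1 CPM in Prince in KO and from 11.7 CPM in N215 to 26.8 CPM in the N42 right pelvis tumor in WT, with medians of 19.7 and 23.2 CPM. Its log2 fold change was −0.19 (SE 0.30, 95% interval −0.82 to 0.45, edgeR adjusted p = 0.755), so that a change beyond 1.76-fold lower or 1.36-fold higher in KO lay outside the interval. The log2 ratio of *Nectin2* to *Pvr* differed by 0.10 between the groups (permutation p = 0.872, adjusted p = 0.872). The genes most like *Pvr* were *Rtn1* (Pearson r of 0.89), *Tsg101* (0.89) and *Spns1* (0.88). For *Cd47* they were *Gm8369* (0.94), *Srgn* (0.92) and *Abi1* (0.92), and for *Lgals9* they were *Rap1b* (0.90), *Stx11* (0.87) and *Rap2c* (0.87).

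The mice that gave several WT tumors allowed body sites to be set side by side. The 4 tumors of N42, from the right pelvis, right femur, left limb and left shoulder, spanned 90.3 to 124 CPM of *Vsir*, 48.6 to 81.7 CPM of *Havcr2*, 144 to 296 CPM of *Cd47* and 2.37 to 4.33 CPM of *Cd274*. The spine and pelvis tumors of N43 had 116 and 129 CPM of *Vsir* and 19.2 and 24.5 CPM of *Havcr2*. For *Havcr2*, the 4 WT mice had mean levels of 65.9 (N42), 21.8 (N43), 8.97 (N25) and 1.36 CPM (N215), and no tumor of 1 mouse lay within the range of another. With 1 or 2 tumors per site and mouse no test was made. N215, the right hind limb tumor, was the lowest WT tumor for *Vsir*, *Havcr2*, *Cd47*, *Sirpa* and *Pvr*.

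Compared per kb of exon, *Cd47* was the most abundant of the 10 transcripts, with a median of 26.3 CPM per kb over the 16 tumors, followed by *Sirpa* (17.0), *Lgals9* (13.4), *Vsir* (11), *Cd276* (8.38), *Pvr* (3.33), *Havcr2* (3.29), *Nectin2* (2.23), *Cd274* (0.92) and *Pdcd1lg2* (0.046). No neighbors in this order kept it in all 16 tumors. *Cd47* was above *Sirpa* in 13, *Nectin2* above *Cd274* in 14 and *Cd274* above *Pdcd1lg2* in 15 tumors, while *Pvr* was above *Havcr2* in 8 and *Havcr2* above *Nectin2* in 7. *Havcr2* held rank 5 in WT (median 13.4 CPM per kb) and rank 8 in KO (1.02 CPM per kb), and *Cd47* rank 1 in WT (36.6) and rank 3 in KO (9.31). The SD of log2 CPM was larger in KO than in WT for all 10 genes, with shallower libraries in KO, and the WT tumors came from 4 mice against 8 for KO.

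**Figure D5:**
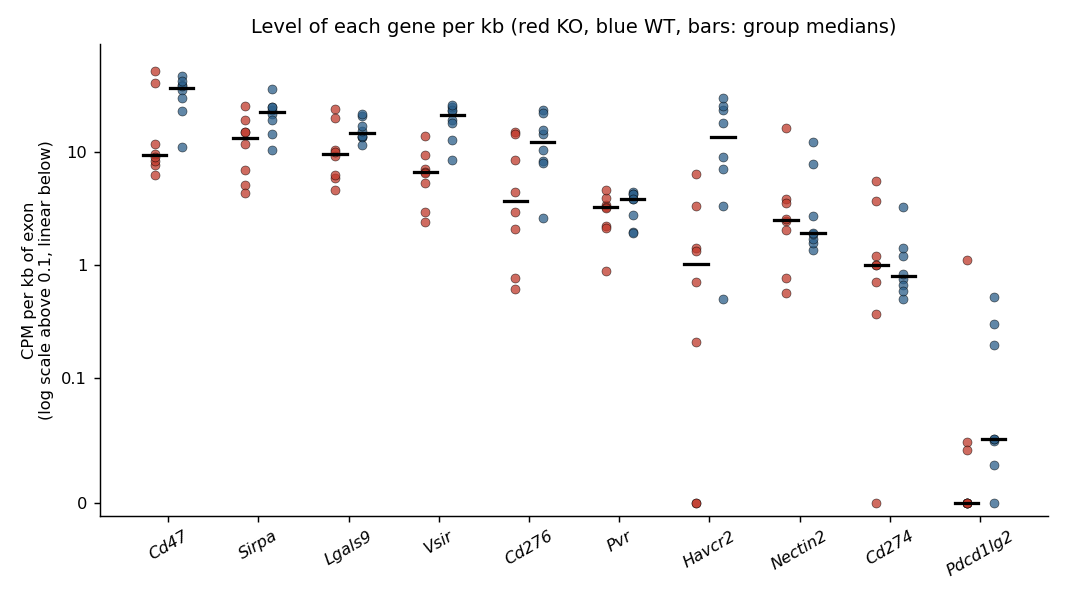
CPM per kb of exon (vertical axis, log scale above 0.1 and linear below) of the 10 genes in order of their median over 16 tumors, KO in red and WT in blue, with group medians as bars. *Cd47* has the highest WT median (36.6) and *Pdcd1lg2* the lowest values, and the *Havcr2* medians are 13.4 in WT and 1.02 in KO.

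The partner list held 33 genes. It was broader than the receptors and other partners of these proteins and included, for example, *Cd24a* and *Cd200*. Of the 33 genes, 23 were tested, 0 passed edgeR's threshold with all tumors, and 2 had an unadjusted p under 0.05. Over all genes edgeR called 4.01%, and 23.0% had an unadjusted p under 0.05. The median log2 fold change of the 23 was −0.23. DESeq2 called 3 of 30 lower and 1 higher. Of the 20078 genes with an adjusted p in DESeq2, it called 958 lower and 1559 higher. Without Zelda, edgeR called 4 of 23 lower, and 698 of all 15829 genes tested. The most abundant was *Thbs1*, a thrombospondin that binds CD47, with 303 CPM in KO and 745 CPM in WT (log2 fold change −1.30, SE 0.64, edgeR adjusted p = 0.237). The others among the 4 most abundant had log2 fold changes of 0.95 for *Cd24a* (170 and 88.6 CPM), 0.23 for *Cd200* (58.6 and 49.3 CPM) and 0.02 for *Hmgb1* (114 and 112 CPM), and edgeR's adjusted p was 0.586 or higher. Among lymphocyte receptors, named here after their values were seen, *Pdcd1* and *Tigit* had no counts in 5 of 8 KO tumors each. *Pdcd1* reached 0.88 CPM in KO (Zelda) and 8.62 CPM in WT (N215), where its mean was 1.83 CPM. *Tigit* reached 1.76 CPM in KO (Zelda), above its highest WT value of 0.94 CPM. *Cd226*, the DNAM-1 gene, reached 37.0 CPM in Zelda and 19.9 CPM in the N25 lung tumor.

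Of 15 listed genes of the interferon pathway that controls PD-L1 or of proteins that stabilize it, 14 were in the count table. All 14 were tested. In KO 1 fell and none rose, where edgeR called 2.15% of all genes lower and 1.86% higher. At an unadjusted p under 0.05 there were 2 of the 14, against 23.0% of all genes. The called gene was *Ifngr1*, the ligand-binding chain of the interferon γ receptor. It had 43.7 CPM in KO (27.6 to 78.7) and 112 CPM in WT (32.8 to 167). Its log2 fold change was −1.36 (SE 0.30, edgeR adjusted p = 0.0179). Like *Vsir*, it lost the call with counts summed per mouse (adjusted p = 0.520), without N42 (0.556), without N43 (0.0653) without Montana, Oregon and Prince (0.0737), with the ribosomal RNA covariate and in limma-voom (0.436), and its adjusted p ranged from 0.00153 to 0.690 over 28 alternatives. The median log2 fold change of the 14 genes was −0.17. The most abundant of the rest were *Jak1* (202 and 205 CPM), *Jak2* (81.9 and 94.1 CPM), *Cmtm4*, whose protein stabilizes PD-L1 (67.2 CPM in KO), and *Nlrc5*, the MHC class I activator gene (64.7 CPM in KO), with adjusted p of 0.579 or higher in edgeR. *Ifng* was not analysed here.

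The remaining marker lists described the makeup of single tumors. Dendritic cell markers (*Zbtb46*, *Itgax* and *Ccr7* the most abundant) summed to 94.1 CPM in Zelda and 96.4 CPM in N25 and to at most 49.8 CPM elsewhere, and neither of the 2 tested was called. Neutrophil markers (*S100a9*, *S100a8* and *Ngp*) reached 419 CPM and erythroid markers (*Slc4a1*, *Hbb-bs* and *Alas2*) 1387 CPM in Zelda, which also held 1039 CPM of liver markers (*Alb*, *Apoa1* and *Ttr*). Skeletal muscle markers (*Myh4*, *Ckm* and *Acta1*) reached 115500 CPM in Oregon and 59500 CPM in Montana, against at most 5183 CPM in WT. Osteoclast markers (*Mmp9*, *Ctsk* and *Acp5*) were 17.8 to 1863 CPM in KO and 61.8 to 8672 CPM in WT, with 0 of 6 called by edgeR and 3 at an unadjusted p under 0.05. Over all genes edgeR called 2.15% lower and 1.86% higher, and 23.0% had an unadjusted p under 0.05. Of the 7 fibroblast markers 2 were called lower, and 4 had an unadjusted p under 0.05. None of the 5 endothelial markers (*Cdh5*, *Pecam1* and *Kdr* the most abundant) was called, and 0 had an unadjusted p under 0.05 in edgeR. None of the 9 osteoblast markers was called, and 4 had an unadjusted p under 0.05. The part of these cells in the values of the checkpoint genes was not tested.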

How the data were processed

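RNA was measured in 16 tumors. Per the labels and the methods of the study, the authors removed ribosomal RNA, sequenced 50 bases from 1 end, aligned the reads with Novoalign 2.08.01 to mm10 and Ensembl transcript models, allowing many alignments per read, and counted reads per gene with USeq for DESeq2 1.26.0. The deposited values are raw counts per gene. Multiple alignments can move reads between near-identical sequences.

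Counts were compared with edgeR 4.0.16 in R 4.3.3 (TMM, filterByExpr at 10 counts and a total of 15, quasi-likelihood F test, two-sided, no covariate, Benjamini-Hochberg over 15413 genes, threshold 0.05). The biological coefficient of variation was 70.4%. Single genes were also tested by two-sided exact permutation of log2 CPM (prior count 2) over all splits of the tumors or mice, and ratios over tumors, where 0.000155 is the smallest p. The fits were also run on simulated counts of independent tumors. Those counts held no mouse effect and cannot show how calls hold when tumors share a mouse. Alternatives were DESeq2 1.42.0, limma 3.58.1 (voom, mouse as a random effect), other normalizations, no filter, counts summed per mouse, left-out tumors or mice and a ribosomal RNA covariate. Positions and exon lengths came from GENCODE vM21 (GRCm38), which holds 99.7% of the 25054 genes, and promoters from RefSeq. Python 3.11.15 was used for the rest.

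The 10 genes and the marker lists were chosen with earlier results of these data known. Named are the 10 genes, *Arid1a*, of the partner and PD-L1 lists every called gene and at most 4 more, the most abundant, of each cell type list at most the 3 most abundant, and for each of the 10 genes the 3 tested genes with the highest Pearson r. Outside this rule, *Pdcd1*, *Tigit* and *Cd226* of the partner list were named after their values were seen. A depth of 3 counts was taken as the floor; floors and Poisson intervals cover counting error only. Labels do not say how tumors of 1 mouse relate. In limma-voom the correlation of tumors of 1 mouse was 0.762. P-values over tumors treat them as independent and so can be too small. No batch is labeled. The results of 1 marker gene are not reported here.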

Additional observations from a re-analysis of the deposited data

Results flagged for a closer look

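Among 28 group values of the 10 genes and 4 ratios, 3 had 1 tumor farther from the nearest other tumor, relative to the range of the group, than Dixon's criterion allows. Chance meets it in about 1 in 20 groups when values follow a normal distribution. CPM were used untransformed, with *Pdcd1lg2* at 0 in 5 of 8 KO tumors, so that rate need not hold here. *Cd274* in WT was 11.8 CPM in the N25 lung tumor, and the next tumor had 5.10 CPM. *Pdcd1lg2* in KO was 2.17 CPM in Zelda, and the next tumor had 0.095 CPM. *Nectin2* in KO was 56.4 CPM in Prince, and the next tumor had 13.4 CPM.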

How the results depend on the processing

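Of 9 tested genes, edgeR called 1. DESeq2 and edgeR without the N25 lung tumor each called 2 (*Vsir* and *Havcr2*), and leaving out 1 tumor at a time gave 1 to 2. The count was 0 in limma-voom, with counts summed per mouse and without mouse N43 or Montana, Oregon and Prince (2 at an unadjusted p under 0.05 in each), and 0 without mouse N42 or with the ribosomal RNA covariate (1 at an unadjusted p under 0.05 in each). At that unadjusted p, 1371 of 15413 genes lay in limma-voom, 1262 of 16007 per mouse and 2651 of 15351 without N43. It was met by 3463 of 16616 without Montana, Oregon and Prince, 1283 of 16050 without N42 and 1564 of 17468 with the covariate. Over all genes edgeR called 618. DESeq2 called 2517, limma-voom and the ribosomal RNA covariate 17 each, counts summed per mouse 10, the data without N42 8 and without N43 133, and leaving out 1 tumor gave 252 to 1348 (without Zelda). Fewer tumors or mice enter some of these fits, and the cause of the other changes was not tested.

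The *Lgals9* to *Havcr2* difference was 2.23 with counts summed per mouse, 1.76 without N42, 2.73 without Massa and Grilka and 2.61 to 3.63 leaving out 1 tumor at a time, with adjusted p of 0.00559 to 0.598. Signs turned only where no call was made. *Cd274* was −0.0085 in limma-voom, −0.16 as mean log2 CPM over tumors and −0.52 over mice, and −0.19 to 0.97 leaving out 1 tumor. *Pvr* was 0.023 without N42 and 0.24 with the ribosomal RNA covariate. *Nectin2* was −0.27 in limma-voom, −0.52 per mouse, −0.50 without N42, −0.19 without N43, −0.57 without Montana, Oregon and Prince, −0.17 as mean log2 CPM over tumors and −0.73 over mice, and −0.80 to 0.60 leaving out 1 tumor. The *Nectin2* to *Pvr* ratio was −0.56 per mouse, −0.63 without N42, −0.045 without Massa and Grilka and −0.17 to 0.43 leaving out 1 tumor, and that of *Cd274* to *Pdcd1lg2* −0.028 to 0.89. The other 6 tested genes kept their direction in all 30 alternatives. Low genes are seen less well in the shallow KO libraries. No paired analysis was possible because no mouse gave tumors to both groups.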
